A study of Rattus norvegicus with 2 samples.

Results

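Krüppel-like factors are transcription factors that bind CACCC and GC-rich stretches of DNA through zinc fingers at their C-terminal end. In the liver they take part in the fasting response, in circadian output and in the response of endothelial and stellate cells to injury. Some members activate transcription, whereas others recruit corepressors such as SIN3A or CTBP. The genes described here were Klf2, Klf3, Klf4, Klf6, Klf9, Klf10, Klf11, Klf13, Klf15 and Klf16, taken with all their probe sets that the array annotation assigns to exactly 1 gene. These were 10 of 14217 genes and 24 of 31042 probe sets on the array.

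Liver RNA came from male Wistar rats, an outbred laboratory strain, 2 months old and weighing 250 to 300 g. All rats had been fasted for 18 h. The fasted group received no fat meal, and the other group received a 5 ml bolus of olive oil (16 ml per kg) and was killed 4 h later. Each group was 1 Affymetrix expression array. The number of livers behind an array and the hour of killing are not given in the labels. The oil thus cannot be told apart from the bolus itself, or from any difference in hour or length of fasting. Every difference below therefore compares 2 arrays, with no replicate and no p-value. A fixed size of 2-fold was used in place of a threshold on a test.

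The median signal over all probe sets was 42.5 on the fasted and 44.7 on the olive oil array. Values below 12.8, the 25th percentile, were raised to it before the log2 was taken. A probe set counted as measured where its mean log2 signal over both arrays was at or above the median on the array (41.4 on the linear scale). The brightest probe set stood for its gene. The pooled SD of log2 differences between measured probe sets of the same gene was 0.35 over 2290 genes, which covers probe error and not the variation between rats. Markers of hepatocytes were bright, with Alb at 17154 (fasted) and 17984 (olive oil). All 7 matched hepatocyte markers of 8 listed lay within 1.5-fold, as did 80.5% of all measured genes. The least bright of them, Hnf4a, was 1.42-fold higher, at 4274 and 6057, and its 3 measured probe sets ran from -0.33 to 0.50 on the log2 scale. Whether the brightest signals could still show a change was not tested.

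Klf2, Klf9 and Klf4 were each between 2.27-fold and 2.30-fold higher after olive oil, and no Klf gene of the 10 was at least 2-fold lower. The background, over 9209 measured genes, was 3.21% past 2-fold upward and 2.92% downward. Klf4, at 33.5 in fasted liver, passed the filter only through the olive oil array. With no filter, 5.64% of all 14217 genes were past 2-fold upward and 4.78% downward. Klf13 was 1.92-fold and Klf15 1.54-fold higher, so that 5 of the 10 were past 1.5-fold upward, beside 9.44% of measured genes. The other 5 genes, Klf6, Klf10, Klf11, Klf16 and Klf3, lay within 1.5-fold of equal signal, as did 80.5% of measured genes. A difference above 0 was seen in 8 of the 10 genes, beside 48.3% of all measured genes. Among the 8 is Klf11, whose sign depends on the choice of probe set. The median log2 difference of the 10 genes was 0.56, and that of all measured genes was -0.01. With the mean over all probe sets of a gene, these medians were 0.40 and -0.01.

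At the level of probe sets, 20 of the 24 were measured, and 4 were too dim. Of the 20, 16 had a higher and 4 a lower signal after olive oil, beside 49.7% of all measured probe sets with a higher one. Of these 20, 4 were at least 2-fold higher, beside 3.63% of all measured probe sets; 3.00% of those were at least 2-fold lower, and no Klf probe set was. The single probe set of Klf4 and the _a_at probe set of Klf2 passed the filter only through the olive oil array, since their fasted signals, 33.5 and 19.1, were below it. The probe set of Klf11 that was lower, with 39.9 after olive oil, passed only through the fasted array. At 1.5-fold, 8 of the 20 were higher and 1 was lower, beside 10.9% and 10.5% of all measured probe sets. At 3-fold, 1 was higher, beside 0.857%, and 0 genes were, beside 0.793% of measured genes. Without any filter, 4 of the 24 Klf probe sets were at least 2-fold higher, beside 6.20% of all 31042. Of the 6 genes with several measured probe sets, 4 had all of them on the same side of 0, and Klf3 and Klf11 had both signs. Over all genes with several measured probe sets, the share with a single sign was 63.2%.

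**Figure D1:**
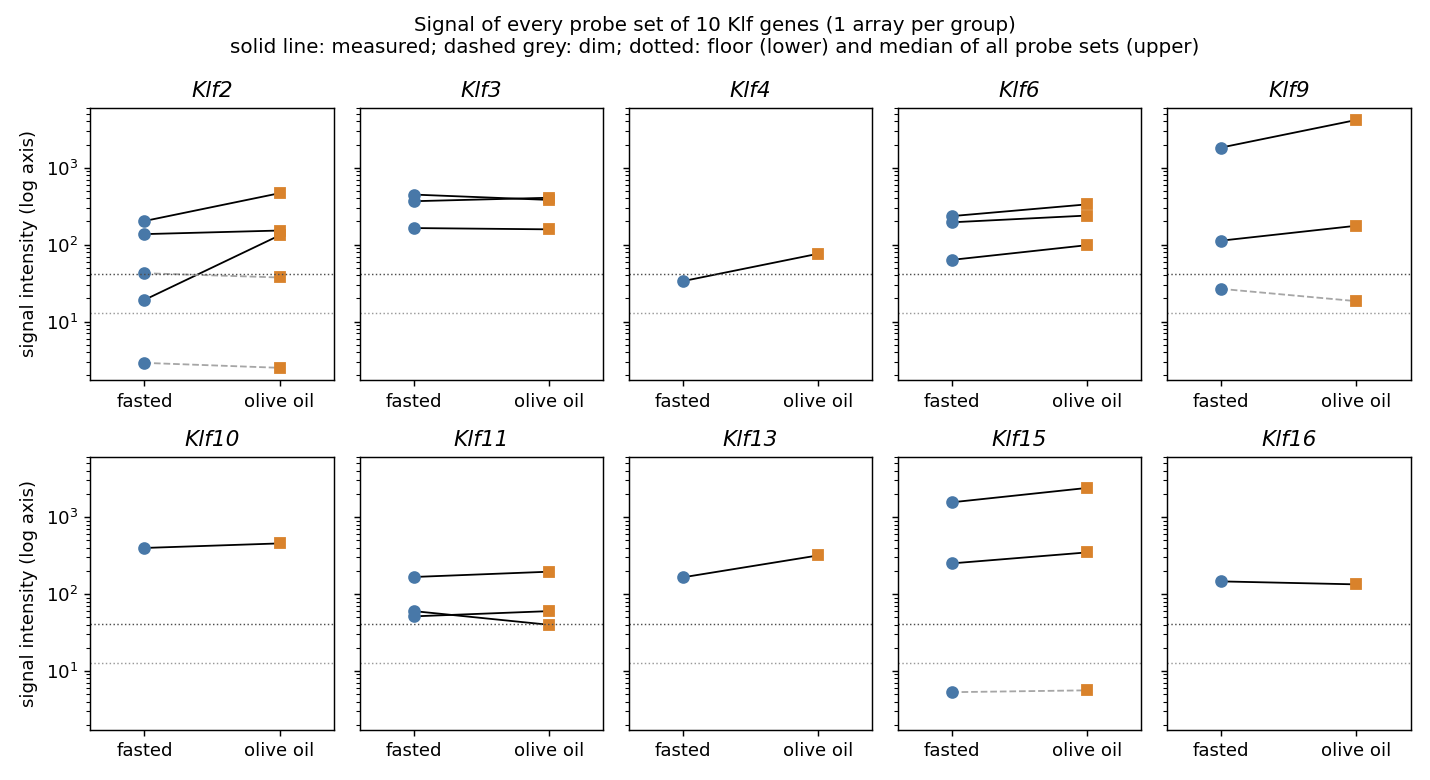
Signal intensity (log axis) of all 24 probe sets of the 10 Klf genes on the fasted (circle) and olive oil (square) array, with solid lines for the 20 measured and dashed lines for the 4 dim probe sets, and dotted lines at the floor of 12.8 and the filter of 41.4. The lines of Klf9, Klf13, Klf15 and Klf6 climb on every measured probe set, those of Klf3 and Klf11 cross or diverge, and Klf2 combines a nearly flat with a steep line.

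Among the members that bind the corepressor SIN3A (Klf9, Klf10, Klf11, Klf13 and Klf16), Klf9 had the largest difference. Klf9 is a glucocorticoid-induced and rhythmically expressed repressor of hepatocytes. Its brightest probe set, 1370209_at, read 1831 in fasted and 4184 in olive oil livers, 2.28-fold higher. Of the measured genes, 181, or 1.97%, had a difference at or above this size. A second probe set, 1387882_at, went from 112.7 to 176.1, 1.56-fold higher. The third, 1390076_at, was dim and had the opposite sign, with 26.6 and 18.4. The 2 measured probe sets thus had the same direction with log2 differences of 1.19 and 0.64. Their range of 0.55 was matched or exceeded in 20.8% of the 1746 genes with 2 measured probe sets. With the mean over all its probe sets, the dim one included, the difference of Klf9 was 0.43 on the log2 scale, and with the mean over the measured ones it was 0.92.

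The stretch before the transcription start of Klf9 is shown because Klf9 is the only gene of those at least 2-fold higher whose listed start coincides with the edge of its annotated gene. It comes from RefSeq (GRCr8, chr1:230126396-230126645, plus strand) and ends at the base before the start. Capitals mark a CACCC box, the type of element that Krüppel-like factors bind, and CCAAT boxes on either strand.
Klf9: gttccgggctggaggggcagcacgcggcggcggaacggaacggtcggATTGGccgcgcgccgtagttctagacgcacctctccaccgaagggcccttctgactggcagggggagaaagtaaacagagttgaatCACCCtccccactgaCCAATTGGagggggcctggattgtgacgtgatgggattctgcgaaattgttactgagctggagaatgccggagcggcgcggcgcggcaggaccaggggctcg

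In this stretch of 250 bases the CACCC box begins 117 bases before the start. The CCAAT boxes begin 203, 102 and 99 bases before it, and the last 2 share 2 bases. Of 27457 upstream stretches of the same length, 49.4% hold CACCC and 34.3% hold CCAAT on either strand. The match is to letters only and says nothing of binding in these livers.

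Klf13, an activator of chemokine transcription in T cells that is also expressed in many tissues, came next in this group. It went from 165.1 to 317.8, 1.92-fold higher, just under the 2-fold size. A difference of this size or above was found in 3.71% of measured genes. Only 1 probe set was available, so that no other could be compared. Under the alternatives tried, its log2 difference ranged from 0.87 to 0.97 and stayed below 2-fold in each.

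Klf10, induced by TGF-beta and under clock control in the liver, had nearly the same signal on both arrays. It stood at 397.9 and 456.1, 1.15-fold higher, on 1 probe set. Klf16, a repressor of basal transcription, stood at 146.2 and 133.7, 1.09-fold lower, also on 1 probe set. Both differences were smaller than the scatter of 0.35 between probe sets of a gene.

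Klf11, the closest relative of Klf10, had probe sets that disagreed. The brightest, 1379914_at, was 1.17-fold higher with 166.8 and 195.4, and 1397266_at was 1.17-fold higher with 51.3 and 60.0. The third, 1393545_at, was 1.51-fold lower with 60.1 and 39.9. The gene's log2 difference was 0.23 by its brightest probe set and -0.05 by the mean of the 3, so that its direction depends on that choice.

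Klf2, Klf4 and Klf6 belong to the members that mainly activate transcription. Klf2 keeps endothelial cells quiescent and is induced by blood flow. Its 5 probe sets gave different answers. The brightest, 1376569_at, went from 202.8 to 466.8, 2.30-fold higher. Next to it 1375248_at was nearly flat, with 137.0 and 152.6. Another, 1386041_a_at, went from 19.1 to 132.2, 6.92-fold higher. The remaining probe sets were dim, 1394068_x_at with 42.5 and 37.4 and 1386040_at with 2.9 and 2.5.

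The measured log2 differences of Klf2 thus ran from 0.16 to 2.79. This range of 2.64 was the widest of all 429 genes with 3 measured probe sets, whose median range was 0.46. The probe sets 1386041_a_at and 1394068_x_at were designed from the same expressed sequence tag, and yet their log2 differences were 2.79 and -0.18. By Affymetrix's naming, an _a_at set is meant to match several transcripts of a gene, and an _x_at set holds probes that can also match other sequences. The steep probe set had a low fasted signal. Its log2 difference shrank to 1.60 when the floor was set at the 50th percentile and to 2.08 when 16 was added to all signals. Klf2 stayed above 2-fold on its brightest probe set in each scaling, floor and offset tried, whereas the mean over all 5 probe sets gave 0.79.

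Klf4, a regulator of epithelial differentiation that acts beside Klf2 in endothelium, had 1 probe set. It went from 33.5 to 76.1, 2.27-fold higher, and 2.00% of measured genes had a difference at or above this one. Both signals were low. Among dimmer measured genes, those under the 75th percentile of signal, 4.43% were at least 2-fold higher, against 2.40% of the brighter ones. With the floor at the 50th percentile its log2 difference of 1.18 was 0.80, under 2-fold.

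Klf6, which responds to liver injury and is expressed in hepatocytes, stellate and endothelial cells, was higher on all 3 probe sets. The brightest went from 235.1 to 334.2, 1.42-fold higher. The others stood at 195.2 and 239.0, 1.22-fold higher, and at 63.4 and 98.5, 1.55-fold higher. This range of 0.34 on the log2 scale was below the median range of 0.46 for genes with 3 measured probe sets. Of the measured genes, 11.9% had a difference at or above that of Klf6.

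**Figure D2:**
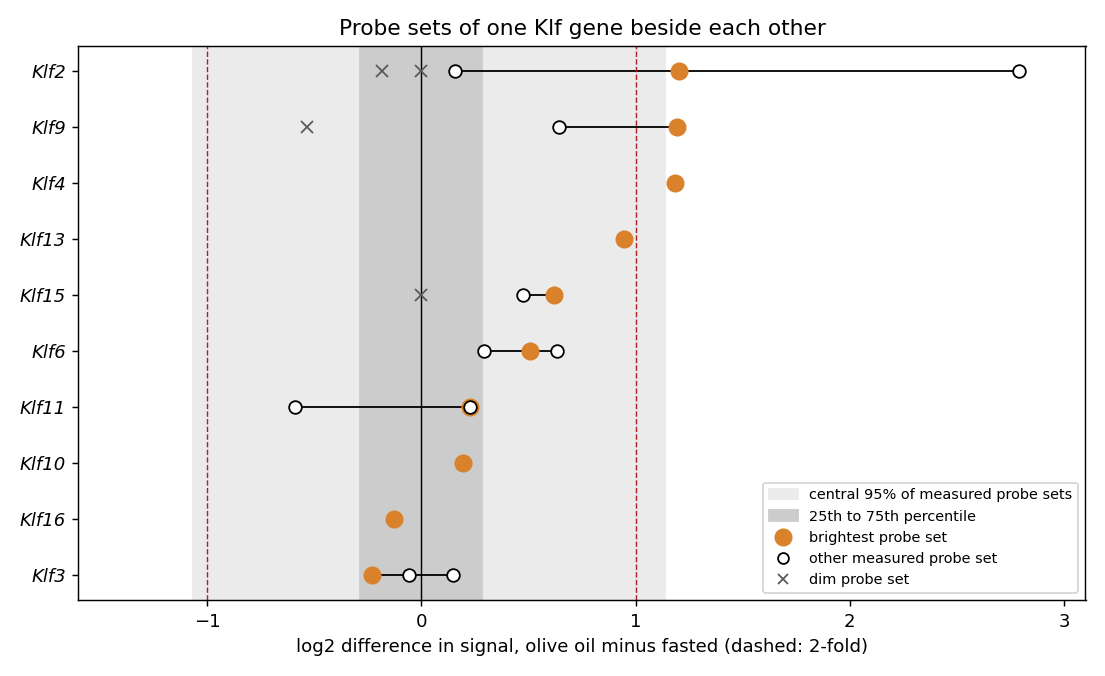
Log2 difference in signal, olive oil minus fasted, for each probe set of the 10 Klf genes, ordered by the brightest probe set (orange), with other measured probe sets (open) and dim ones (crosses). Grey bands give the central 95% (-1.06 to 1.14) and the 25th to 75th percentile (-0.29 to 0.28) of all measured probe sets. The brightest probe sets of Klf2, Klf9 and Klf4 lie just past the outer band, and Klf2 spans the widest range.

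Klf15, which drives amino acid breakdown and gluconeogenesis in the fasted liver, was moderately higher with agreement between its measured probe sets. The brightest, 1368249_at, went from 1562 to 2403, 1.54-fold higher, and 1381396_s_at from 250.8 to 348.4, 1.39-fold higher. The log2 differences of 0.62 and 0.47 were 0.15 apart, a range matched or exceeded by 69.8% of genes with 2 measured probe sets. The other probe set, 1381395_at, comes from the same expressed sequence tag as 1381396_s_at, yet it was below the floor on both arrays, with 5.3 and 5.6. A shift of Klf15's size or more was found in 8.44% of measured genes.

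Klf3, a repressor that recruits CTBP proteins, was nearly equal on both arrays. Its 3 probe sets stood at 447.8 and 381.7, at 367.1 and 407.0, and at 164.3 and 158.1. The log2 differences were -0.23, 0.15 and -0.06. None was larger than the scatter between probe sets of a gene.

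Upstream stretches from RefSeq were listed for 6 of the 10 genes, Klf3, Klf4, Klf6, Klf9, Klf11 and Klf15. None was listed for the other 4, Klf2, Klf10, Klf13 and Klf16, so their upstream sequence was not searched. The E-box CACGTG, a palindrome bound by clock, USF and related factors, was in 3 of the 6, those of Klf15, Klf6 and Klf11. Of all 27457 stretches, 5.79% hold it, and of the 7416 with at least 60% G and C, 9.56%. The 4 listed Klf stretches of that G and C content were those of Klf6, Klf9, Klf11 and Klf15. The surrounding 30 bases are shown, from GRCr8, because 3 of the 6 hold this element; capitals mark the E-box. They lie at chr4:124522902-124522931 (Klf15, plus strand), chr17:69458517-69458546 (Klf6, minus strand) and chr6:47014415-47014444 (Klf11, plus strand).
Klf15: cgcccgcggcgtCACGTGagcggtcggaga
Klf6: ctccaagctggtCACGTGgggggaggagga
Klf11: ccgcccaccgccCACGTGcagcctccgccg

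The E-box begins 101 bases before the listed start in Klf15, 56 in Klf6 and 21 in Klf11, where it shares 1 base with a GC box. Klf15 and Klf6 had higher signals on all measured probe sets, while those of Klf11 went both ways. Of the listed starts, only those of Klf9 and Klf6 coincide with the edge of the annotated gene. Those of Klf15, Klf11, Klf3 and Klf4 do not, so their stretches need not lie upstream of the gene. The GC box GGGCGG was in 2 of the 6 stretches (32.4% of all), CACCC in 3 (49.4%), CCAAT in 5 (34.3%) and TATAAA in 1 (13.1%), each on either strand. The sequence TGTTCT from the glucocorticoid response element, the cyclic AMP element TGACGTCA and the D-box TTATGTAA were in 0 of the 6, against 17.1%, 1.70% and 0.816% of all stretches. These letters being absent from 250 bases says nothing about the factors.

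Other members of the wider KLF and SP family were mostly dim. Of 17 listed, 8 genes with 19 probe sets were matched and 3 were measured. Klf12, a CTBP-binding repressor, went from 377.1 to 303.9, 1.24-fold lower. Sp1, a broadly expressed activator, was 1.24-fold lower by the brightest probe set, and its 4 measured probe sets ran from -0.58 to 0.31 on the log2 scale. Sp2 stood at 39.4 and 50.1. Klf1, Klf5, Sp3 and Sp4 were below the floor on both arrays on every probe set, and all 4 probe sets of Klf7 were dim. All 3 measured genes of this group lay within 1.5-fold, as did 80.5% of all measured genes.

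Of the coregulators through which these factors act, 13 of 15 listed were measured. By the brightest probe set, a lower signal was seen in 12 of them, while 48.3% of all measured genes had a higher one. Several of the 12 had another measured probe set with a higher signal. Past 1.5-fold was 1 of the 12, beside 10.1% of measured genes lower by as much. The median log2 difference was -0.25, and -0.10 when probe sets were averaged per gene. Kat2b, a histone acetyltransferase, went from 973.2 to 605.3, 1.61-fold lower, with -0.08 on a second probe set. The nuclear receptor corepressor Ncor1 was 1.49-fold lower by the brightest probe set, but its probe sets ran from -0.58 to 0.62. Kdm1a, a histone demethylase, was 1.41-fold and the deacetylase Hdac3 1.33-fold lower.

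The kinase ERK5 and MEF2 factors induce Klf2 and Klf4, and ubiquitin ligases remove KLF proteins. All 8 measured genes of this list of 10 lay within 1.5-fold, as did 80.5% of all measured genes. The gene of ERK5 itself was not among those measured. The median of the list was -0.05, and 0.04 with a filter at the 75th percentile. The largest differences were those of the ligase adaptor Fbxw7, 1.28-fold lower, and of Mef2a, 1.25-fold lower. Smurf1 was 1.11-fold lower and Wwp1 1.08-fold higher.

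Endothelial genes under the control of Klf2 and Klf4 included a large difference in Thbd. Thbd, thrombomodulin, an anticoagulant receptor of endothelium, went from 85.2 to 328.5, 3.86-fold higher, and its 2 probe sets gave log2 differences of 1.95 and 1.59. Nos3, endothelial nitric oxide synthase, went from 47.5 to 76.2, 1.60-fold higher. Cav1 was 1.18-fold higher and the VEGF receptor gene Kdr 1.46-fold lower. Of 8 measured genes of 13 listed, 2 were past 1.5-fold upward, beside 9.44% of measured genes, and none was past it downward. The median was 0.13, and -0.22 with a filter at the 75th percentile, so that the direction of this median depends on dim genes. The list was not split by whether Klf2 and Klf4 raise or lower a gene, and a link to them was not tested.

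Markers of cell types were read beside Klf2, Klf4 and Klf6, which non-parenchymal liver cells express. In a bulk sample, fewer cells of a type and less RNA per cell cannot be told apart. Beside 48.3% of all measured genes, 4 of 7 matched endothelial markers of 9 listed were higher, and 3 were lower. Their summed signal was 5752 (fasted) and 6256 (olive oil), with Stab1 1.75-fold lower and Lyve1 1.52-fold higher. Without Lyve1 the sum was 3954 and 3515, so that its direction rests on this marker. Of 7 matched Kupffer cell markers of 9 listed, 5 were higher, none past 1.5-fold, with a summed signal of 4756 and 5612. Of all measured genes, 48.3% were higher and 80.5% lay within 1.5-fold.

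Of 7 matched stellate cell markers of 8 listed, 3 were higher, beside 48.3% of all measured genes. Among these markers Acta2 was 1.59-fold higher and Lrat lower, at 183.6 and 122.0. The 7 markers had summed signals of 2940 and 2945, carried by Col3a1, at 1808 and 1876. Their median log2 difference was -0.03, and 0.22 with probe sets averaged per gene. Neutrophil markers were higher. S100a9 went from 62.9 to 253.1 and S100a8 from 32.0 to 75.7, the latter measured only through the olive oil array, while Csf3r was below the floor on both arrays, and the sum over the 3 matched markers of 4 listed went from 102.4 to 340.4. Of 5 matched lymphocyte markers, 1 was measured, and their sum was 257.4 and 201.4. The 4 matched cholangiocyte markers summed to 285.9 and 218.4 and the 3 erythroid ones to 9353 and 9062. The part of these cell types in the differences of Klf2, Klf4 and Klf6 was not tested.

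Klf10 and Klf11 act in the TGF-beta pathway, a list of 13 genes with 9 measured. Past 2-fold were 2 upward and 1 downward, beside 3.21% and 2.92% of measured genes. Ccn2, connective tissue growth factor, went from 102.9 to 498.8, 4.85-fold higher. The ligand gene Tgfb3 went from 42.7 to 95.6, 2.24-fold higher. The signal transducer genes Smad2 and Smad3 were 2.15-fold and 1.44-fold lower. The median was 0.06. It was -0.01 after median centring of both arrays, and 0.22 with probe sets averaged per gene, with no filter or with a filter at the 75th percentile. Klf10 and Klf11 themselves lay within 1.5-fold as given above.

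Genes of amino acid breakdown, which Klf15 drives, had 23 measured members of 25 listed, 15 with a higher and 8 with a lower signal, beside 48.3% of all measured genes with a higher one. Past 1.5-fold were 6 upward and none downward, beside 9.44% and 10.1% of measured genes. The median was 0.18. Sds, Got1, Aass and Tat had the largest differences, with 9.30-fold, 4.08-fold, 3.08-fold and 1.96-fold higher signals. Of 13 measured glucose and lipid genes of 15 listed, 3 were past 1.5-fold upward and 3 downward, against the same background, and the median was -0.02. Acaca, acetyl-CoA carboxylase, was 1.64-fold and the coactivator Ppargc1a 4.69-fold higher, and Srebf1 and Scd of lipogenesis 2.21-fold and 2.03-fold lower. Ppargc1a was below the filter in the fasted array and passed only through the olive oil array, at 164.2.

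Klf9 is a glucocorticoid-responsive gene. Of 12 measured genes of 14 listed as other such genes, 8 were higher, beside 48.3% of measured genes. Past 1.5-fold were 4 upward and 2 downward, beside 9.44% and 10.1%. The median was 0.37. Fkbp5 and Mt2A were 4.19-fold and 4.06-fold higher and Sgk1, a kinase gene, 1.96-fold lower. Tat was given above.

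Immediate early genes, with which Klf2, Klf4 and Klf6 are often grouped, went both ways. Of 15 measured genes of 23 listed, 3 were past 1.5-fold upward and 5 downward, beside 9.44% and 10.1% of measured genes, and the median was -0.30. The nuclear receptor genes Nr4a1 and Nr4a2 were 2.03-fold and 1.83-fold lower and the phosphatase gene Dusp1 1.84-fold lower, while Ccn2, also in this list, was higher. Clock genes, beside which Klf9 and Klf10 cycle, went both ways, with 3 of 15 measured genes of 18 listed past 1.5-fold upward and 3 downward, beside the same background. Their median was -0.10. The list was not split by the time of day at which a gene peaks, so this median does not describe the clock as a whole. Dbp was 2.88-fold and Per3 2.39-fold higher, and Bmal1 and Npas2 were 1.96-fold and 1.89-fold lower. Per3, at 37.0 and 88.5, passed the filter only through the olive oil array. The hour of killing is not given in the labels. With 1 array per group its part in the differences of clock and Klf genes cannot be told apart from that of the oil, and it was not tested.

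**Figure D3:**
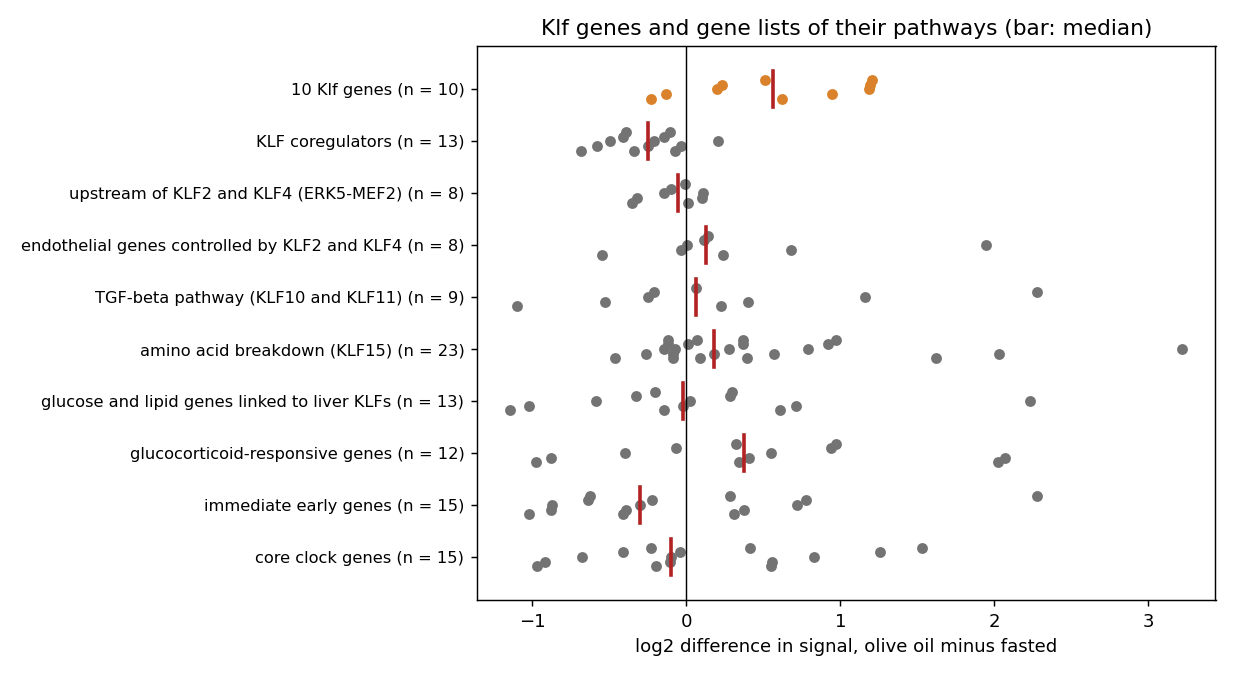
Log2 difference in signal, olive oil minus fasted, of the 10 Klf genes (orange) and of the measured genes of 9 pathway lists (grey), 1 point a gene by its brightest probe set, with the median of each list as a bar. The median of the Klf genes is 0.56, and those of the lists lie between -0.30 for immediate early genes and 0.37 for glucocorticoid-responsive genes.

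Other processing changed the size of some Klf differences more than their direction. In 9 of the 10 genes the sign was the same under all 9 alternatives that bear on a gene's value, the exception being Klf11. Part of this was fixed in advance. Averaging probe sets could not change Klf4, Klf10, Klf13 and Klf16, which have 1 probe set each. Leaving out the floor, or probe sets with a suffix such as _a_at, could change no gene. No brightest Klf probe set has such a suffix or a signal below the floor. Klf6 ranged from 0.43 to 0.53 on the log2 scale, Klf15 from 0.37 to 0.63, Klf10 from 0.12 to 0.22 and Klf16 from -0.20 to -0.11. Klf3 ranged from -0.30 to -0.05. The ranges were wide for the genes at least 2-fold higher, from 0.79 to 1.38 for Klf2, from 0.43 to 1.20 for Klf9 and from 0.80 to 1.18 for Klf4.

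**Figure D4:**
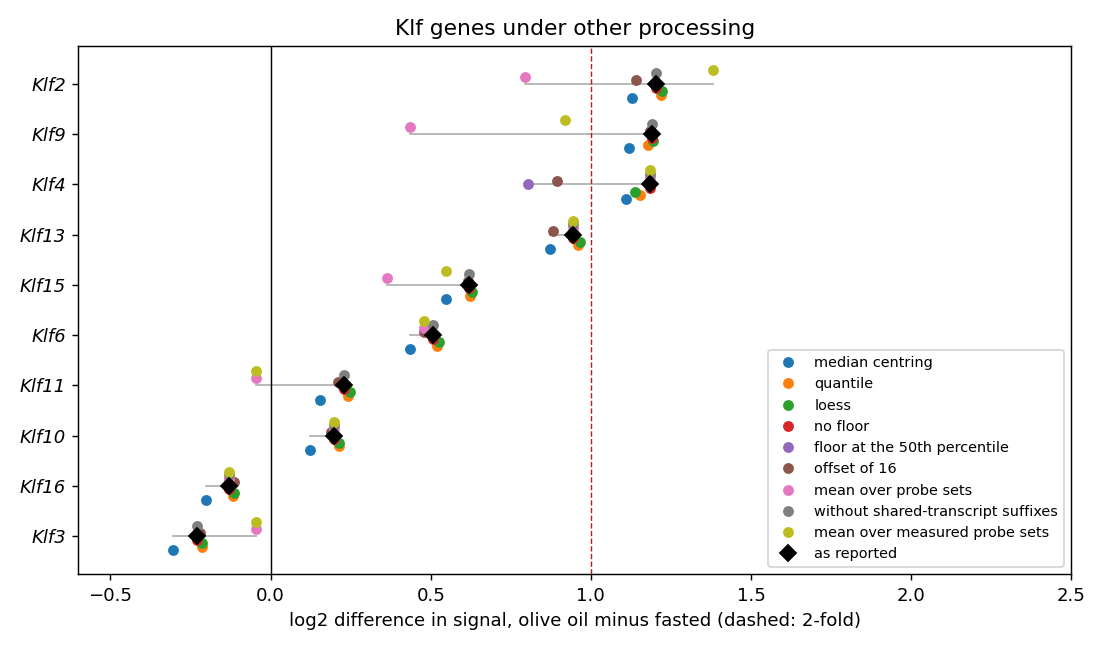
Log2 difference of each Klf gene as reported (diamond) and under 9 alternatives (dots), with the 2-fold size as a dashed line. Klf2 and Klf9 fall below the line with the mean over all their probe sets, Klf9 also with the mean over the measured ones, Klf4 with the higher floor or an offset, and only Klf11 crosses 0.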

How the data were processed

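Biotin-labelled liver RNA was hybridized to 1 Affymetrix rat array per group, per the labels' protocols. The authors deposited 1 linear signal intensity per probe set and array, with Affymetrix Expression Console named per the submitters' processing notes. The summary algorithm and scaling are not stated there, and the values carry no call of presence. Having 1 array a group limits the precision.

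Control probe sets (57) were left out. Differences are olive oil minus fasted, on the log2 scale after the floor, with no further normalization. Of the probe sets, 20826 had 1 gene in the platform's annotation. For 20758 of them the gene ID was found in RefSeq (GRCr8), and the symbol was taken from there, whether or not it differed. Named genes are the 10 members and up to 4 measured genes of largest difference per list. Unmeasured family members, the unmeasured gene of ERK5 and the markers Csf3r and Col3a1 were added after the results were seen. Marker sums cover all matched genes. Members, lists and rules were chosen with earlier results of these data known. Alternatives are given with the results. The functions were tested on simulated arrays. Python 3.11.15, numpy 2.4.6, pandas 2.3.3, statsmodels 0.14.6 (loess) and matplotlib 3.10.9 were used.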

Additional observations from a re-analysis of the deposited data

How the results depend on the processing

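Scaling (median centring, quantile, loess) kept the count of Klf genes at least 2-fold higher at 3. It moved no Klf gene by more than the probe set scatter of 0.35. Leaving out the floor could not change this count, since no brightest Klf probe set had a signal below it. Median centring lowered all differences by 0.07. The count was 1 with the mean over all probe sets of a gene, where Klf2 was 0.79 and Klf9 0.43 and 2.97% of all measured genes were at least 2-fold higher. It was 2 with the mean over the measured probe sets, an alternative chosen after seeing the data. It was 2 with an offset of 16 (2.30% of all), with a 50th percentile floor (2.73%), where Klf4 was 0.80, and with a filter at the 75th percentile (2.40%), which left 7 of the 10 Klf genes. At 1.5-fold it was 5 genes, and at 3-fold 0. The count of Klf probe sets, 4 as reported, was 2 with the filter at the 75th percentile, 8 higher and 1 lower at 1.5-fold, and 1 at 3-fold. No paired analysis was possible because each group is 1 array. Dim probe sets limit Klf4 and the steep Klf2 probe set, and nothing here measures variation between rats.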
